A study of Mus musculus with 6 samples.

Results

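The ADAM and ADAMTS genes encode zinc metalloproteinases of the cell surface and the extracellular matrix. Their levels were read from poly(A) RNA-seq of the mouse retinal pigment epithelium (RPE) and choroid. The members were all listed genes whose symbol was Adam, Adamts or Adamtsl followed by a number and at most 1 letter. There were 56 of them among 33924 listed genes, and 43 had a mean normalized count of at least 10, a level that 18479 of all listed genes also reached. Those 43 were 19 of 32 ADAM, 19 of 19 ADAMTS and 5 of 5 ADAMTSL (ADAMTS-like) genes. The samples came from C57BL/6J mice, 3 young (labelled 1 to 2 months old) and 3 aged (20 to 24 months in the titles, 22 to 24 in the age field), with both eyes of an animal pooled and no transgene or treatment named for either group. The labels name male animals, while the study's methods name both sexes and a somewhat older young group. The table gives 1 mean normalized count per gene over all 6 libraries, so each value here mixes both ages in equal parts, has no SD, and says nothing of the difference between them. With no spread between libraries, none of the comparisons below could be tested, and neighbours in an order of levels cannot be told apart.

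ADAMs are membrane-anchored proteins with a propeptide, a metalloproteinase domain, a disintegrin domain and a cysteine-rich region. The active ones cut the outer part off other membrane proteins, which releases growth factors, cytokines and receptor ectodomains. ADAMTS proteases are secreted, carry thrombospondin type 1 repeats, and process matrix proteins such as proteoglycans and procollagens. ADAMTSL proteins have the repeats but lack the protease domain. In the eye, RPE and choroid face each other across Bruch's membrane, a sheet of extracellular matrix rich in TIMP3, an inhibitor of several of these enzymes.

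The tissue label was checked against marker genes by mean normalized count. RPE genes were high, with Rpe65, the retinoid isomerase, at 113930, Rlbp1 at 102636 and Ttr at 397586, but Best1, a chloride channel of the RPE, was listed at 81.8. The 7 RPE markers thus ranged from 81.8 to 397586. Markers of other cell types were also high. The rod photoreceptor genes Sag, Gnat1 and Pde6b lay between 16944 and 46603, all 4 skeletal muscle markers between 35123 and 48944, all 4 melanocyte markers (pigment genes that RPE cells express too) between 25408 and 256984, and all 5 fibroblast markers between 5456 and 84651. Endothelial (717 to 7369), pericyte and smooth muscle (4044 to 45231) and macrophage markers (1014 to 5719, 3 of 4 listed) were also detected. The part each cell type has in the level of any member was not tested.

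The catalytic site is the feature that separates active members from inactive ones, so its coding sequence is shown for the 4 highest ADAM and 4 highest ADAMTS genes by mean normalized count, and for Adamts8 as the only measured member with serine at motif position 8. The histidines of the motif HEXXHXXGXXH (X, any residue) hold the zinc ion, and the glutamate takes part in the cut. The codons below are from the GENCODE annotation of GRCm38, read along the coding strand 5′ to 3′, with the codons of motif positions 1, 2, 5, 8 and 11 in capitals.
Adam9: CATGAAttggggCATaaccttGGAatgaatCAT
Adam10: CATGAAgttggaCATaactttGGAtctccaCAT
Adam17: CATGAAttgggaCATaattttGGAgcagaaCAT
Adam15: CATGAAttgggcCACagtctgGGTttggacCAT
Adamts1: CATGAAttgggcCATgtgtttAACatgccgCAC
Adamts10: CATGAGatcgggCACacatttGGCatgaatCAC
Adamts2: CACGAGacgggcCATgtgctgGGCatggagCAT
Adamts5: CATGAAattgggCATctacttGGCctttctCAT
Adamts8: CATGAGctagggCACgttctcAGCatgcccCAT
In Adam9 (chr8:24990326-24990358, minus strand), Adam15 (chr3:89344780-89344812, minus) and Adam17 (chr12:21336732-21336764, minus) the site lies within a single coding exon, exon 11 in Adam9 and Adam15 and exon 12 in Adam17. In Adam10 (chr9:70754296-70761585, plus strand) it is split between exons 9 and 10, and in all 5 ADAMTS genes shown it is also split by an intron. These are Adamts1 (chr16:85799191-85799545, minus; exons 3 and 4), Adamts10 (chr17:33538157-33538279, plus; exons 9 and 10), Adamts2 (chr11:50775403-50776134, plus; exons 7 and 8), Adamts5 (chr16:85878015-85887826, minus; exons 2 and 3) and Adamts8 (chr9:30952721-30953378, plus; exons 3 and 4).

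A coding transcript with the full HEXXHXXGXXH motif was annotated for 25 of the 43 measured members. It was found for 12 of 19 ADAM, 13 of 19 ADAMTS and 0 of 5 ADAMTSL genes. The other 6 ADAMTS genes had the shorter HEXXH. Counting from 1 at the first residue of the motif, Adamts1, Adamts4, Adamts9, Adamts15 and Adamts20 carried G8N and Adamts8 carried G8S, so all 19 ADAMTS genes held HEXXH and all 3 zinc-binding histidines. The 7 measured ADAM genes without the motif were Adam22, Adam7, Adam23, Adam11, Adam5, Adam32 and Adam4. Adam11, Adam22 and Adam23 are known as catalytically inactive receptors of the nervous system.

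To compare levels between genes, each mean normalized count was divided by the length in kilobases of the longest annotated transcript (counts per kb). Should the means already allow for transcript length, as the paper's methods leave possible, this step corrects for it again. That was not tested. The smallest means above 0 were shared by many genes, such as 0.157 by 97 genes and 0.161 by 182. In counts per kb, the ADAM genes with the motif held 85.8% of the summed ADAM level. The ADAMTS genes with glycine at motif position 8 held 52.7% of the summed ADAMTS level, and those with G8N or G8S the rest, most of it in Adamts1.

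**Figure D1:**
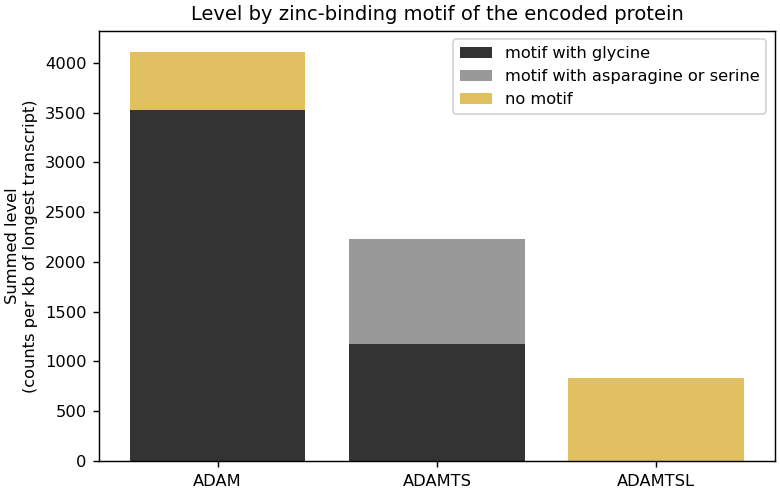
Summed level of the measured members of each class, in mean normalized counts per kb of longest transcript, split by the motif in the annotated protein. ADAM members with glycine in the motif sum to 3529 and those without the motif to 585, ADAMTS members with glycine sum to 1176 and those with asparagine or serine to 1056, and the 5 ADAMTSL members without a motif sum to 836.

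As a group the members were below the typical measured gene. The median was 55.6 counts per kb over the 43 members and 216 over the 16435 measured genes with an annotated length, and 9 of 43 members were above that 216. As mean normalized counts the medians were 244 and 668. The members summed to 0.0843% of all normalized counts. By class, the median per kb was 59.4 for ADAM, 21.1 for ADAMTS and 155 for ADAMTSL. Per kb of coding length these medians were 103, 35.4 and 209, beside 535 over all measured genes with that length. Per kb of median length they were 170, 32.2 and 596, beside 440, so by that length ADAMTSL was above the typical gene. The range within a class was wide for the proteases, from 5.47 to 1233 counts per kb for ADAM (226-fold) and from 3.60 to 818 for ADAMTS (227-fold), and narrow for ADAMTSL, from 57.5 to 284 (4.95-fold).

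A few genes made up most of the level. Adam9, Adamts1, Adamts10, Adam10, Adam17 and Adam15 together held 66.4% of the summed counts per kb, and the lowest of these 6 was 2.19-fold above the next member, Adamtsl5. The remaining 37 members shared the rest. The same 6 were highest by mean normalized count and per kb of coding length. By coding length, though, Adamts10 (932) was close to Adamtsl5 (802). Per kb of median length the set differed, with Adamtsl3 (2053), Adam22 (1523) and Adamtsl4 (1382) above Adam9 (1301).

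**Figure D2:**
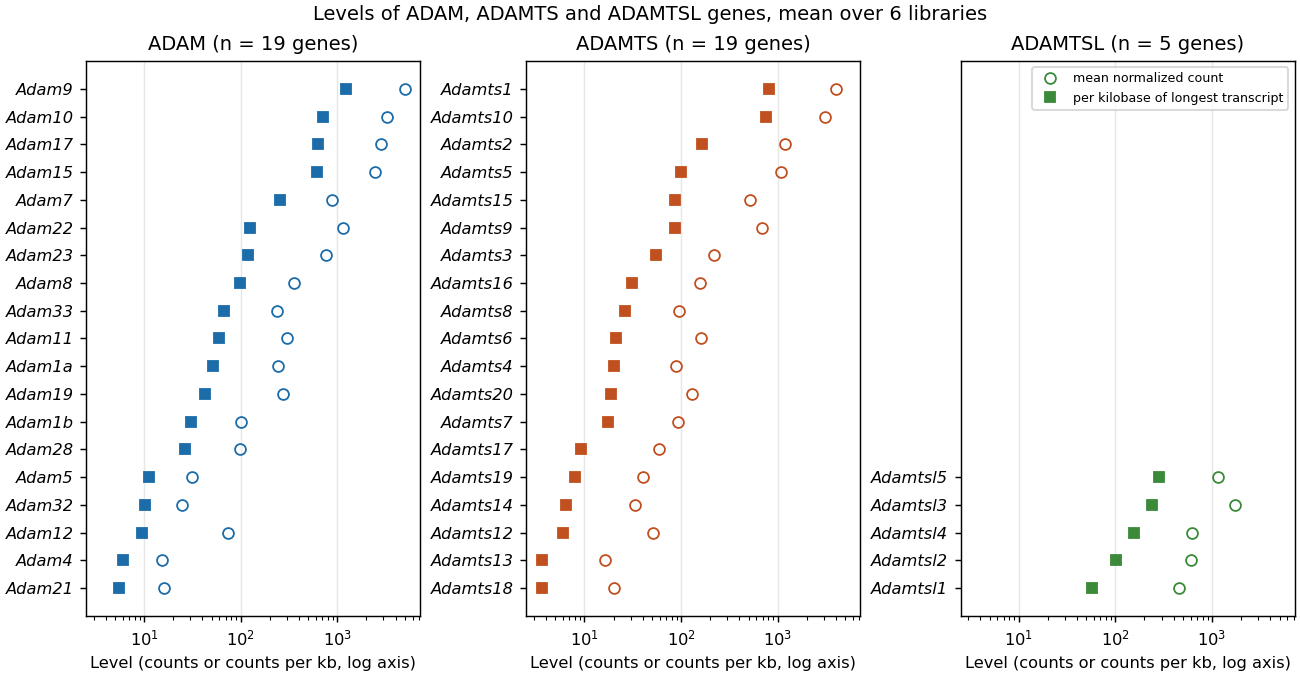
Level of each of the 43 measured members by class, as mean normalized count over 6 libraries (open circles) and as mean normalized count per kb of longest transcript (filled squares), both on a log axis and ordered by the level per kb. In ADAM and ADAMTS a few genes stand near the top of the axis (Adam9 at 1233 and Adamts1 at 818 counts per kb) above a long tail, while the 5 ADAMTSL genes lie between 57.5 and 284.

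Among the ADAMs that shed membrane proteins, Adam9 (ENSMUSG00000031555), a protease whose loss in humans causes a cone-rod dystrophy, was the highest member by mean normalized count, at 4986. It was also first per kb of longest transcript, at 1233, at percentile 85.2 of measured genes with a length. Adam10, the main α-secretase and the protease of ligand-bound Notch, had a mean normalized count of 3281, and Adam17, the TNF-releasing enzyme, had 2819. Per kb of longest transcript these 2 were close, at 714 and 631 counts per kb, a ratio of 1.13. The ratio was 1.31 per kb of coding length, and per kb of median length Adam10 was at 1850 and Adam17 at 940. Adam15, a member with a proline-rich cytoplasmic tail, had a mean normalized count of 2433 and 622 counts per kb, next to Adam17. An antisense transcript, 4731419I09Rik, overlaps 9290 bases of Adam15, and whether the counting used strand is not given in the sources used here. The position of these genes among one another depends on the length used. Divided by the median length of its transcripts, Adam15 was first of all members, at 2353 counts per kb, and Adam9 was seventh, at 1301.

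The other shedding ADAMs were lower. Adam8, known from leukocytes, had a mean normalized count of 356 (97.1 counts per kb), Adam19, a meltrin, 272 (42.6), Adam33, linked to airway smooth muscle, 239 (66.8), Adam28, known from lymphocytes, 98.4 (26.5) and Adam12, also a meltrin, 73.0 (9.51). These 5 and the 4 above held 83.6% of the ADAM counts per kb, of which Adam9 took 35.8%.

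The inactive neural group was led by Adam22, the receptor of the secreted synaptic protein LGI1, with a mean normalized count of 1142, followed by Adam23 at 764 and Adam11 at 303. Per kb of longest transcript, Adam22 and Adam23 differed by a ratio of 1.04 (124 and 119 counts per kb), and Adam11 was at 59.4. This closeness depended on the length used. Per kb of coding length the ratio of Adam22 to Adam23 was 1.34. Per kb of median length Adam22 was at 1523, Adam11 at 430 and Adam23 at 222. The 3 genes held 7.33% of the ADAM counts per kb. The rod marker Sag was at a mean normalized count of 46603 in the same libraries, and the part of neural retina in these levels was not tested.

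Many ADAM genes are best known from the male germ line, and 13 of 32 stayed under a mean normalized count of 10. Adam4 (15.3), Adam21 (15.9) and Adamts13 (16.3) were the members just above that minimum, and Adam3 (2.94), Adam18 (0.850) and Adam2 (0.672), genes of sperm surface proteins, the ones just below. Adam30 (0.348) and Adam6b (0.323) were lower still. Adam24, Adam25, Adam26a, Adam26b, Adam29, Adam34, Adam39 and Adam6a were listed at 0. The smallest values in the table correspond to 1 read in 1 library, so a listed 0 is 0 reads assigned in all 6, which allows a mean of up to 0.5 normalized counts (3 counts over 6 libraries, counting error only). These 8 were 25% of the ADAM genes, beside 24.8% of all listed genes at 0. Of the 8, 6 have the full zinc-binding motif and 2 do not. In Adam25, Adam26a, Adam26b, Adam34, Adam39 and Adam6a, 63.3% to 73.2% of the stretches of 50 bases in the transcripts belong to that gene alone. For these genes a 0 also depends on how shared reads were assigned. The testis markers were near 0 as well, with Prm1 at 1.15, Odf1 at 0.348, Tnp1 at 0.336 and Prm2 at 0.

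Some genes known from the male germ line or reproductive tract were nonetheless measured. Adam7, best known from the epididymis, had a mean normalized count of 886 and 255 counts per kb, percentile 53.6 of measured genes with a length, and the motif is absent from its annotated protein. No stretch of 50 bases in its transcripts was shared with another gene. Adam1a, the fertilin alpha subunit, was at 244 and Adam1b at 101 mean normalized counts, but just 22.2% of the 50-base words in Adam1a transcripts and 67.6% in Adam1b belong to that gene alone. Adam1a shares most of its words with Gm42878 and overlaps Mapkapk5 on the same strand, so both values are uncertain. Adam4, with 82.6% of its words its own, lies inside Cox16 on the same strand and is uncertain too. Adam5 (31.1) and Adam32 (24.7) had low mean normalized counts.

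Several members are neighbours on a chromosome, with levels far apart in some neighbourhoods and close in others. On chromosome 8 of GRCm38, Adam18, Adam3, Adam5, Adam32 and Adam9 lie within 415 kb on the minus strand, with mean normalized counts in that order of 0.850, 2.94, 31.1, 24.7 and 4986. The gap between Adam32 and Adam9 is 806 bases, and per kb they were at 10.1 and 1233 counts. The 2 further groups on this chromosome, Adam24, Adam25 and Adam39 within 152 kb and Adam26b, Adam26a and Adam34 within 190 kb, were all listed at 0. Adam4 and Adam21, neighbours on chromosome 12, were close by mean normalized count, at 15.3 and 15.9. On chromosome 14, Adam7 was 9.63-fold above Adam28 per kb. Adamdec1, which lies between them and is not a member by its symbol, had 55.5 counts per kb.

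**Figure D3:**
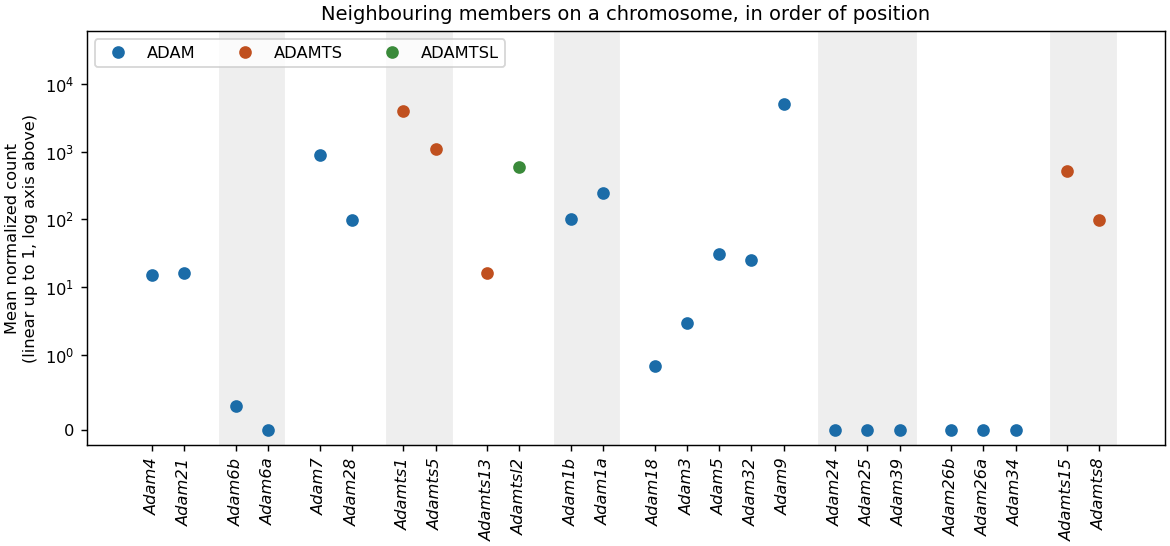
Mean normalized count over 6 libraries of members that lie within 500 kb of one another, in order of position within each shaded or unshaded group (linear axis up to 1, log above). Adam9 (4986) stands at the end of a group of 5 whose next highest gene is at 31.1, and both groups of 3 genes are at 0.

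The ADAMTS proteases were described by branch. In the hyalectanase branch, which cuts aggrecan, versican and brevican, 7 genes held 51.8% of the ADAMTS counts per kb, and Adamts1 took 70.7% of the branch. Adamts1 (ENSMUSG00000022893), which is also known as an angiogenesis inhibitor, had a mean normalized count of 3995 and 818 counts per kb. Adamts5, a main aggrecanase of cartilage, is its neighbour on chromosome 16, 53059 bases away. Its mean normalized count was 1087, or 101 counts per kb, so Adamts1 was 8.12-fold higher per kb of longest transcript but 3.53-fold higher per kb of coding length. Adamts9 and Adamts15 had mean normalized counts of 689 and 514 and were at 86.0 and 86.7 counts per kb of longest transcript. Their order depended on the length used, with Adamts15 higher per kb of coding length (180 against 119) and Adamts9 higher per kb of median length (191 against 115). Adamts20 (129), Adamts8 (96.2) and Adamts4 (88.7), another main aggrecanase, were low by mean normalized count, and Adamts1 was 40.5-fold above Adamts4 per kb. Adamts9 overlaps A730049H05Rik and Gm15737 on the opposite strand.

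Adamts10, which acts on fibrillin microfibrils and whose loss causes Weill-Marchesani syndrome with lens displacement, was the second ADAMTS gene. Its mean normalized count was 3087 and its level 749 counts per kb, with Adamts1 1.09-fold above it per kb of longest transcript. Per kb of coding length Adamts1 was 1.48-fold above it, and per kb of median length Adamts10 was at 950 and Adamts1 at 1709. Adamts6, a close relative of Adamts10, had a mean normalized count of 162. Adamts10 was 35.6-fold higher than Adamts6 per kb of longest transcript and 19.3-fold higher per kb of coding length. The pair held 34.5% of the ADAMTS counts per kb, 97.3% of that in Adamts10.

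The procollagen branch removes the N-propeptide of fibrillar procollagens and held 10.1% of the ADAMTS counts per kb. Adamts2 led it with a mean normalized count of 1190 and 164 counts per kb, 2.95-fold above Adamts3 (219 by count; 5.40-fold per kb of coding length) and 25.6-fold above Adamts14 (33.2 by count). The remaining ADAMTS genes were low. By mean normalized count, Adamts16 was at 159 and Adamts18 at 20.3, Adamts7 at 93.8 and Adamts12 at 51.7 (both cut cartilage oligomeric matrix protein), Adamts17 at 58.7 and Adamts19 at 40.7, and Adamts13, the protease of von Willebrand factor, at 16.3. These 3 pairs and Adamts13 held 1.56%, 1.05%, 0.764% and 0.162% of the ADAMTS counts per kb.

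All 5 ADAMTSL genes were measured. By mean normalized count Adamtsl3 (1735) was above Adamtsl5 (1167), but per kb of longest transcript Adamtsl5 was above Adamtsl3, at 284 and 239 counts per kb. Adamtsl5 was also higher per kb of coding length (802 against 339), while Adamtsl3 was higher per kb of median length (2053 against 596). Adamtsl4, whose loss displaces the lens, had a mean normalized count of 625 (155 counts per kb), Adamtsl2, which binds fibrillin-1 and is mutated in geleophysic dysplasia, 600 (101) and Adamtsl1 450 (57.5). Adamtsl1 overlaps 125024 bases of Sh3gl2 on the same strand. The class held 11.6% of the members' counts per kb with 5 of the 43 genes, ADAMTS 31.1% with 19 and ADAM 57.3% with 19.

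The partners of these proteins were read from lists of genes. Of the inhibitors, Timp3, which blocks ADAM17 and the aggrecanases and is mutated in Sorsby fundus dystrophy, had a mean normalized count of 60954 and 12908 counts per kb, above every member. Timp2 followed at 15423 by count (4158 per kb), then Reck, a membrane-bound inhibitor, at 1851 (407 per kb), Timp1 at 576 (652 per kb) and Timp4 at 299 (54.4 per kb). All 5 were measured, with a median of 652 counts per kb.

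ADAM10 and ADAM17 need proprotein convertases to remove the propeptide and, respectively, TspanC8 tetraspanins and iRhoms to leave the endoplasmic reticulum. All 13 genes of that list were measured, with a median of 229 counts per kb. Tspan10, a tetraspanin of pigmented cells, was far above the rest at 6184 counts per kb (10389 by count), followed by Tspan14 at 815 and Tspan17 at 773, with Tspan5 at 328, Tspan15 at 238 and Tspan33 at 36.6 counts per kb. Of the iRhom side, Rhbdf1 had 211, Rhbdf2 72.4 and Frmd8, which stabilises iRhoms, 229 counts per kb. The convertases were Pcsk7 at 275, Pcsk6 at 185, Furin at 126 and Pcsk5 at 46.1 counts per kb.

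All 32 listed membrane substrates were measured, with a median of 173 counts per kb and a range from 7.70 (Il6ra) to 6388 (Prnp). App, the amyloid precursor, was at 4234 counts per kb, and Kitl (1255), Vcam1 (1112), Axl (970), Trem2 (883) and Mertk (870), the last a phagocytic receptor of the RPE, came next after Prnp and App. Notch2 was the highest Notch receptor, at 259 counts per kb, with Notch3 at 100, Notch4 at 85.1 and Notch1 at 25.1. Tnf, the namesake substrate of ADAM17, was at 26.8 counts per kb.

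Matrix substrates differed by branch. Of the 4 hyalectans, Bcan was at 260 counts per kb, above the median of 216 over measured genes. The others were below it per kb, with Vcan at 75.2, Acan at 5.87 and Ncan at 4.11. By mean normalized count, though, Vcan (934) was above Bcan (818), and both were above the median of 668. The fibrillar procollagens Col1a2 (6960), Col3a1 (6447) and Col1a1 (1010) were high, with Col5a1 at 211 and the cartilage collagen Col2a1 at 30.2 counts per kb. Of 9 other substrates and cofactors, Dcn (18042) and Bgn (3029), small leucine-rich proteoglycans, were highest per kb, and Tfpi2 was lowest, with a mean normalized count of 45.9. Vwf, the substrate of Adamts13, was at 486 and Comp, that of Adamts7 and Adamts12, at 1502. All 8 microfibril genes were measured, from 94.3 (Fbn2) to 963 (Mfap5) counts per kb, with Fbn1 at 695. Pofut2, which adds fucose to thrombospondin repeats, was at 331 counts per kb, and B3galtl, which extends that sugar, had a mean normalized count of 1927 and no annotated length under that symbol.

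**Figure D4:**
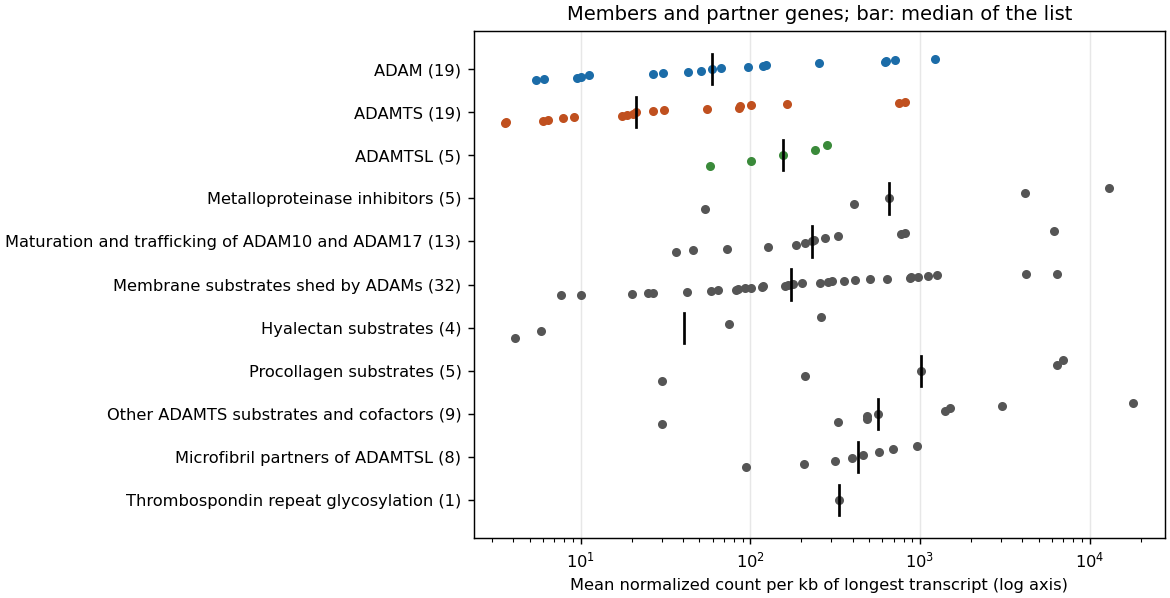
Level of every measured member and listed partner gene with an annotated length, in mean normalized counts per kb of longest transcript on a log axis, with the number of genes in parentheses and a bar at each median. The median is 59.4 for ADAM, 21.1 for ADAMTS and 155 for ADAMTSL, and 652 for the 5 inhibitors, whose highest gene, Timp3 at 12908, lies to the right of every member.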

How the data were processed

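The data were poly(A) RNA-seq libraries of RPE/choroid from 3 young and 3 aged mice. The authors trimmed reads, aligned them with STAR to GRCm38 transcripts, estimated counts per gene with Sailfish and ran DESeq2 (versions of STAR and DESeq2 are not given in the labels; the strand setting is not given in the sources used here). The deposited table gives each gene a signal, the mean of normalized counts over all 6 libraries, with no value per library. Its other columns hold the authors' comparison of ages (fold change, its standard error, test statistic and p-values) and were not used, so an edgeR test planned on counts per library could not be made. The depth of single libraries is unknown. The means summed to 40816668, and the highest precision is 1 read in 1 library (a mean of 0.157 to 0.174).

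Members were taken by symbol at a mean of at least 10. Of the listed symbols, 25 had been turned into dates by spreadsheet software and match no gene. All 56 members matched the GENCODE annotation, as did 88.9% of genes at or above 10. The authors mapped reads to an Ensembl annotation, so lengths, overlaps and shared words taken from GENCODE may differ from those behind these counts. Lengths were the longest, or as alternatives the median or coding, transcript length, so levels per kb rest on annotation and not on the isoforms expressed. For each gene the longest coding sequence that began with ATG and had whole codons (if none, the longest) was translated and searched for the motifs. A search for HEXXHXXGXXH in every annotated coding transcript gave the same genes, though not every transcript of a gene held it (Adamts10, 1 of 9, and Adam17, 3 of 7). Words of 50 bases shared with other genes were counted. Scripts used Python 3.11.15, pandas 2.3.3, numpy 2.4.6 and matplotlib 3.10.9, and the level computations were tested on simulated data.

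The members, branches and lists were chosen with earlier results of these data known. Named by rule were the 8 highest ADAM and ADAMTS genes, all ADAMTSL genes, the 3 on each side of the minimum and the genes of the lists. Other members were named after their values were seen. Some listed marker and overlapping genes are not reported here.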

Additional observations from a re-analysis of the deposited data

How the results depend on the processing

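The number of measured members was 43 at a minimum of 10, and 43, 40 and 35 at minimums of 5, 20 and 50, with 48 above 0. The median mean normalized count of the ADAM genes was 272, but 27.9 with every listed gene included and 356 at a minimum of 50, since 13 of 32 lie under 10. That of the ADAMTS genes was 129, and 162 at a minimum of 50. That of the ADAMTSL genes did not change under either. The 5 highest members held 52.8% of the summed mean normalized count, and 57.7%, 49.1% and 54.3% per kb of longest, median and coding length. The ADAM genes held 52.6%, and 57.3%, 51.6% and 57.9%. Of the 10 highest members by count, 9, 9 and 8 were also among the 10 highest by these lengths, with Adam9 first except per kb of median length, where Adam15 was. The motif count was 25, and 31 with HEXXH alone or, chosen after seeing the data, with G, N or S at position 8. No paired analysis was possible because each gene has only a mean over the libraries. For the same reason the edgeR and DESeq2 tests, the other scalings, the filter on low counts and leaving out each replicate were not run. A mean without its spread limits each order of levels, and RNA from other cell types of the dissected tissue cannot be told apart from that of RPE.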
